A study of Mus musculus with 6 samples.

Results

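A set of 9 genes of mast cells and basophils were followed by name in urethane-induced lung tumours and control lung: histidine decarboxylase (Hdc), the granule proteases Cpa3, Cma1, Mcpt4, Mcpt8 and Tpsb2, and the receptor genes Kit, Fcer1a and Ms4a2. All 9 were among the 33924 gene names of the count table, and 6 of them were among the 20001 genes with enough reads to be tested. The members were chosen by the measured CPM of Hdc, already known to be higher in these tumours than in control lung, to set it beside genes of the cells that make histamine, so the values of all 9 in tumour against control lung are given as a description and without a test. The study sequenced bulk RNA of FVB/NJ mice, an inbred strain, from lung tissue. The tumour group was 3 libraries of urethane-induced lung tumour (replicates 1, 2 and 4) from mice given the carcinogen urethane at 1 g per kg intraperitoneally, and the control group was 3 libraries of normal lung (replicates 1, 2 and 3), where the treatment protocol names saline as the other injection. All tissue was taken at 6 months. The animals' age at injection, how tumour was freed of surrounding lung, and whether each library came from its own animal are not given in the sources used here, so a p-value here reflects how far these libraries spread, which could be partly technical.

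Histamine is made from histidine in a single step by the enzyme that Hdc encodes. Mast cells, which settle in tissues, and basophils, which circulate, store it in granules with proteases and release it when antigen binds IgE held by the high-affinity IgE receptor. Mast cells also depend on the receptor tyrosine kinase KIT and its ligand. Hdc is known to be transcribed outside these cells too, in neutrophils, in immature myeloid cells and in enterochromaffin-like cells of the stomach, and Kit is known in capillary endothelium, melanocytes and innate lymphoid cells.

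Counted reads ranged from 48509129 to 62336537 in the tumour libraries and from 38996532 to 59037341 in the control libraries. A gene with 3 reads in a library stood at 0.0490 to 0.0651 CPM in tumours and 0.0456 to 0.0815 CPM in controls (CPM, read counts scaled by the size and composition of each library). Of gene counts between 1 and 10, 60.2% to 71.9% were even numbers, so reads may not be independent molecules. Counting intervals and floors treat each read as independent and leave out the spread between libraries. The intervals may thus be too narrow and the fold bounds too high. Tumour replicate 2 stood apart in sex-linked genes, with 3359.8 CPM of Xist against at most 32.9 CPM in the other 5 libraries, so the members' values without it are given below. All 6 alveolar type 2 and epithelial markers rose in the tumours, with a median log2 fold change of 1.81, among them Epcam at 2.45 ± 0.27, Abca3 at 1.29 ± 0.18 and Sftpb at 1.91 ± 0.28 (edgeR adjusted p = 0.000208, 0.000668 and 0.000848).

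The promoters of Hdc, Cpa3 and Ms4a2 are shown because Hdc was higher in tumours while Cpa3 and Ms4a2 were lower. GATA factors, which bind sequences such as AGATAA and TGATAA, are also known regulators of mast cell and basophil genes. The 250 bases before the start site are printed 5′ to 3′ on the gene's strand, from RefSeq (GRCm38.p6), with each match to AGATAA or TGATAA on either strand in capitals.
Hdc, chr2:126618679-126618928, minus strand: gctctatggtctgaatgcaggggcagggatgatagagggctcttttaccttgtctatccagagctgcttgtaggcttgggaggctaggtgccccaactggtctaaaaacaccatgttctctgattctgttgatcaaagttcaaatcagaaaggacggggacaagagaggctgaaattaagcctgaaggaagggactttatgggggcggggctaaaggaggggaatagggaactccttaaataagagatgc
Cpa3, chr3:20242182-20242431, minus strand: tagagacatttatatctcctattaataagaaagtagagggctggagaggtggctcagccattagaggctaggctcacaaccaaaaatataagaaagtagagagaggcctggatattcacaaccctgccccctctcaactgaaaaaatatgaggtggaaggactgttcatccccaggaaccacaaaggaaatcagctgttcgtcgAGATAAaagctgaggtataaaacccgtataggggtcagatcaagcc
Ms4a2, chr19:11623720-11623969, minus strand: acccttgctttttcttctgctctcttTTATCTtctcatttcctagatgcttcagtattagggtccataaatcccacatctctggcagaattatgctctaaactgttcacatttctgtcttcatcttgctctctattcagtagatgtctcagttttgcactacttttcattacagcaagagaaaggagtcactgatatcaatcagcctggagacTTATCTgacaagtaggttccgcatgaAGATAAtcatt
Of the 9 members, 8 had a promoter in the RefSeq table, Tpsb2 being the exception. Windows of 4 members held a match: Ms4a2 with 3, and Cpa3, Fcer1a and Mcpt4 with 1 each. Hdc, Kit, Cma1 and Mcpt8 had none in this window, and 16.6% of the 32851 RefSeq promoter windows held at least 1. Related forms ending in G were not counted, among them TGATAG in the Hdc window and AGATAG, on the other strand, in the Cma1 window. A match is a stretch of letters and not a measured binding site.

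Hdc was the member that was higher in tumours (chromosome 2, 126419403 to 126445035, minus strand, mm9). It had 294, 468 and 342 CPM in tumour replicates 1, 2 and 4, against 64.5, 62.7 and 53.1 CPM in control replicates 1, 2 and 3. The lowest tumour library lay above the highest control library, and control libraries were close together. The means were 368 ± 89.9 CPM in tumours and 60.1 ± 6.12 CPM in control lung (SD, n = 3 each), a fitted log2 fold change of 2.61 ± 0.21 (SE). Without tumour replicate 2 it was 2.41. Hdc thus rested on many reads, 59800 over the tumour libraries and 9119 over the control libraries, and 0.914% of the 32-base words of its transcript occur in another gene.

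**Figure D1:**
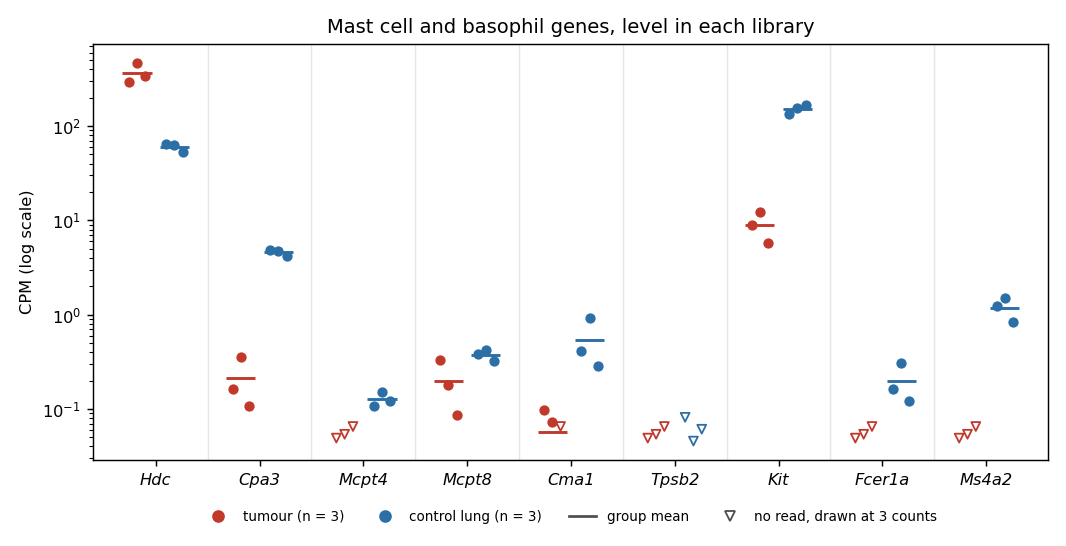
Level of each of the 9 members in CPM, on a log axis, with 1 point per library, tumour left of control lung, and a line at the group mean of 3 libraries. Hdc tumour points (294 to 468 CPM) lie above its control points (53.1 to 64.5 CPM), Mcpt8 overlaps, Tpsb2 has no read, and the other 6 members lie lower in every tumour library than in every control library; open triangles mark libraries with no read, drawn at 3 counts.

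The granule protease with the most reads, Cpa3, was much lower in tumours. Cpa3 encodes carboxypeptidase A3, a protease of mast cell granules that basophils also carry (chromosome 3, 20115516 to 20142080, minus strand, mm9). It had 0.163, 0.359 and 0.108 CPM in tumour replicates 1, 2 and 4, from 10, 20 and 5 reads, against 4.86, 4.79 and 4.204 CPM in control replicates 1, 2 and 3. No tumour library reached the level of any control library. The means were 0.210 ± 0.132 CPM in tumours and 4.62 ± 0.361 CPM in control lung (SD, n = 3 each), with a log2 fold change of -4.43 ± 0.46 (SE). Without tumour replicate 2, the tumour library with the most Cpa3, it was -5.03.

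The chymase genes lie together on chromosome 14. Cma1 encodes a chymase of mast cells (56560290 to 56563498, minus strand, mm9) and had 6, 4 and 0 reads in tumour replicates 1, 2 and 4, against 15, 60 and 14 reads in control replicates 1, 2 and 3. The groups did not overlap, and control replicate 2 stood above the other controls. Its means were 0.0566 ± 0.0508 CPM in tumours and 0.535 ± 0.333 CPM in control lung, a log2 fold change of -3.13 ± 0.81 that was -2.48 without control replicate 2 and -3.28 without tumour replicate 2. Mcpt4, a chymase of connective tissue mast cells (56678581 to 56681147, minus strand, mm9), had no read in any tumour library against 4, 10 and 6 reads in control replicates 1, 2 and 3. That placed it at least 7.15-fold lower in tumours, taking 3 reads over the tumour group as the floor and the control reads as exact. With counting error in both groups and each read taken as independent, the exact binomial 95% counting interval began at 5.30-fold. All Mcpt4 counts were even, so this start may be too high. The floor bound was 4.36 without tumour replicate 1 and 4.69 without tumour replicate 2, which leave fewer tumour reads to bound it. Of the 32-base words of the Cma1 and Mcpt4 transcripts, 10.2% and 11.5% occur in another gene, so a part of their reads may go uncounted or to a neighbour.

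Mcpt8, a serine protease of basophil granules in mice, was the only member with reads whose groups overlapped (chromosome 14, 56701003 to 56704053, minus strand, mm9). It had 20, 10 and 4 reads, or 0.327, 0.180 and 0.0868 CPM, in tumour replicates 1, 2 and 4. Control replicates 1, 2 and 3 had 14, 28 and 16 reads, or 0.380, 0.426 and 0.325 CPM. Tumour replicate 1 lay inside the control range and the other tumour libraries below it. The log2 fold change was -0.90 ± 0.52 (SE), and -0.82 without tumour replicate 2. Tpsb2, a tryptase of connective tissue mast cells (chromosome 17, 25503486 to 25505804, plus strand, mm9), had no read in any of the 6 libraries. A count of 0 allows a level of up to 0.0184 CPM over the tumour group and 0.0198 CPM over the control group, and 0.636% of its 32-base words are shared with another gene.

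The alpha and beta chains of the IgE receptor were not detected in tumours. Ms4a2 encodes its beta chain, which amplifies the signal (chromosome 19, 11690013 to 11698209, minus strand, mm9). It had no read in any tumour library, against 46, 98 and 41 reads, or 1.25, 1.49 and 0.833 CPM, in control replicates 1, 2 and 3. All 3 controls were well above the floor. By the same floor, Ms4a2 was at least 66.2-fold lower in tumours, a bound that was 40.3 without tumour replicate 1 and 43.4 without tumour replicate 2. Its exact binomial 95% counting interval over all libraries began at 53.3-fold. Fcer1a encodes the alpha chain, which binds IgE (chromosome 1, 175151402 to 175157360, minus strand, mm9). It had no tumour read against 6, 20 and 6 reads in control replicates 1, 2 and 3, which is at least 11.4-fold lower by that floor. The floor bound was 6.97 without tumour replicate 1, 7.51 without tumour replicate 2 and 7.53 without control replicate 2. The exact binomial 95% counting interval of Fcer1a over all libraries began at 8.78-fold. In bulk tissue, fewer cells of a type and less RNA per cell cannot be told apart.

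Kit was the most abundant member in control lung and low in tumours (chromosome 5, 75970941 to 76052747, plus strand, mm9). It had 8.94, 12.3 and 5.73 CPM in tumour replicates 1, 2 and 4, against 134, 155 and 166 CPM in control replicates 1, 2 and 3. The groups were far apart, with means of 9.004 ± 3.31 CPM in tumours and 152 ± 16.3 CPM in control lung (SD, n = 3 each). The log2 fold change was -4.07 ± 0.29 (SE), and -4.36 without tumour replicate 2. All 10 capillary endothelial markers fell as well, with a median log2 fold change of -3.23, and their summed level was 282 to 408 CPM in tumours and 2944 to 4166 CPM in control lung. Their part in the Kit difference was not tested.

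Levels can be compared between members only per length of exon. By CPM per kilobase, the order in tumours was Hdc at 57.6 ± 14.1, Kit at 1.54 ± 0.567, Mcpt8 at 0.231 ± 0.142, Cpa3 at 0.145 ± 0.0908 and Cma1 at 0.0527 ± 0.0473, and the other 4 had no read. Mcpt8 and Cpa3 lay within each other's spread there, and the mean of Cma1, from 10 reads, lay below both. In control lung the order was Kit at 26.03 ± 2.79, Hdc at 9.41 ± 0.958, Cpa3 at 3.18 ± 0.249, Cma1 at 0.498 ± 0.310, Mcpt8 at 0.441 ± 0.0589, Ms4a2 at 0.432 ± 0.121, Fcer1a at 0.191 ± 0.0931 and Mcpt4 at 0.129 ± 0.0224 CPM per kilobase. Among these, Cma1, Mcpt8 and Ms4a2 did not differ beyond their spread, nor did Fcer1a and Mcpt4. Hdc was thus the second member in control lung and the first in tumours.

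Within a library, Hdc stood much higher relative to the other members in tumours than in control lung. The ratio of Hdc to Cpa3, in CPM per kilobase, was 408, 296 and 717 in tumour replicates 1, 2 and 4, against 3.02, 2.98 and 2.87 in control replicates 1, 2 and 3. The control values lay close together, and every tumour value was far above them. Hdc over Kit was 30.0, 34.6 and 54.6 in the tumour libraries, against 0.439, 0.368 and 0.292 in the control libraries. Hdc over Mcpt8 was 120.2, 349 and 528 in tumours, against 22.7, 19.7 and 21.9 in control lung. These ratios use the Hdc difference for which the genes were brought together, and are a description of it.

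**Figure D2:**
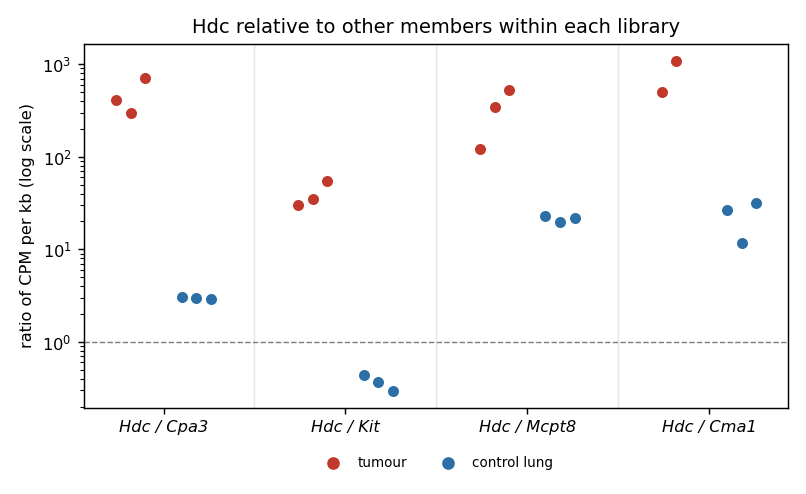
Ratio of Hdc to Cpa3, Kit, Mcpt8 and Cma1 in CPM per kilobase, on a log axis, with 1 point per library and tumour left of control lung; the dashed line marks equal levels. Tumour points lie above control points for all 4 genes, and tumour replicate 4 has no point for Cma1 because Cma1 had no read there.

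Of the 6 members tested, the all-gene fit placed 1 higher and 4 lower past its threshold, while 42.0% of all genes tested passed it in either direction, 18.1% higher and 23.8% lower (adjusted p below 0.05 by the quasi-likelihood test of edgeR, 3 libraries in each group). The libraries of the groups did not overlap for 7 of the 9 members, 1 above and 6 below control lung, where 56.0% of all genes tested did not overlap (26.1% above and 29.9% below). Since the Hdc contrast brought the genes together, nothing is read from these counts. Mcpt4, Fcer1a and Tpsb2 had too few reads to be tested. The overlap count over 9 members includes them, while its share runs over genes tested only.

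Other mast cell genes did not move in a single direction. Of 18 genes outside the members, 10 were tested, of which 3 rose and 3 fell, with a median log2 fold change of 0.11. Over all genes tested the median was 0.01, and 18.1% rose and 23.8% fell. These shares are the background for each list count below. Gata2, a transcription factor of mast cells, basophils and endothelium, fell to 1.03, 1.42 and 0.477 CPM in tumour replicates 1, 2 and 4, against 28.6, 35.1 and 35.6 CPM in control replicates 1, 2 and 3, a log2 fold change of -5.07 ± 0.37 (edgeR adjusted p = 3.71e-05). Cyp11a1, a steroid-forming enzyme also found in mast cells, had -3.58 ± 0.73 (edgeR adjusted p = 0.00494, and -4.37 without tumour replicate 1). Il1rl1, the receptor of IL-33, fell by 1.40 ± 0.37 on the log2 scale (edgeR adjusted p = 0.0165). That adjusted p of edgeR was 0.0542, 0.0647 and 0.0540 without control replicate 1, control replicate 2 and tumour replicate 4, each left out alone.

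Mcpt2, a protease of mucosal mast cells, rose, on very few control reads. It had 26, 48 and 24 reads in tumour replicates 1, 2 and 4, against 0, 2 and 0 reads in control replicates 1, 2 and 3. After scaling, the pooled reads were 45.7-fold more in tumours (exact binomial 95% counting interval 12.3 to 382, edgeR adjusted p = 0.00115). Without control replicate 2, which held the control reads, Mcpt2 was at least 17.3-fold higher by a floor of 3 control reads. The exact binomial 95% counting interval then began at 13.8-fold. Mcpt1, the other mucosal chymase gene, had 32, 2 and 9 reads in the tumour libraries and 0, 0 and 4 reads in the control libraries, and could not be tested. The tryptase gene Tpsab1 had 18, 6 and 4 reads in tumours and none in control lung. Tpsg1, another tryptase gene, had 20, 5 and 4 tumour reads against 1, 4 and 7 control reads. Mcpt9 had 4, 2 and 2 tumour reads and none in control lung, and Tph1, an enzyme of serotonin synthesis, had 18, 0 and 2 tumour reads and none in control lung. Tumour replicate 1 held the most Mcpt1, Tpsab1, Tpsg1 and Tph1 reads. Of the 32-base words of Mcpt9, 23.9% occur in another gene.

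The remaining genes of this group are known in more cell types. Rab27b, which acts in granule secretion, rose to 42.7 ± 5.29 CPM in tumours, against 21.5 ± 4.99 CPM in control lung (log2 fold change 0.99 ± 0.20, edgeR adjusted p = 0.00461). Adora3, an adenosine receptor gene that shares 28.9% of its 32-base words with other genes, had 1.27 ± 0.37 (edgeR adjusted p = 0.0241). Dropping control replicate 2 gave it an edgeR adjusted p of 0.0920, dropping control replicate 3 gave 0.0818, dropping tumour replicate 2 gave 0.0691 and dropping tumour replicate 4 gave 0.0584. Slc18a2, the vesicular transporter that loads histamine into granules, had 7.73, 8.73 and 9.92 CPM in tumour replicates 1, 2 and 4, against 8.31, 8.71 and 6.03 CPM in control replicates 1, 2 and 3. These overlap, and its log2 fold change was 0.19 ± 0.22 (edgeR adjusted p = 0.521). Hpgds, the prostaglandin D2 synthase of blood cells, stood at 0.02 ± 0.27, Ndst2, a heparin-forming enzyme, at -0.18 ± 0.16 and Mitf, a transcription factor of mast cells and melanocytes, at 1.13 ± 0.48 on the log2 fold change scale, with edgeR adjusted p of 0.962, 0.426 and 0.0953. Mitf passed without tumour replicate 1 (1.58, edgeR adjusted p = 0.000332). Cma2 and the mast cell receptor gene Mrgprb1 had no read in any library, and Mrgprb2 had 2 reads, in control replicate 1.

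**Figure D3:**
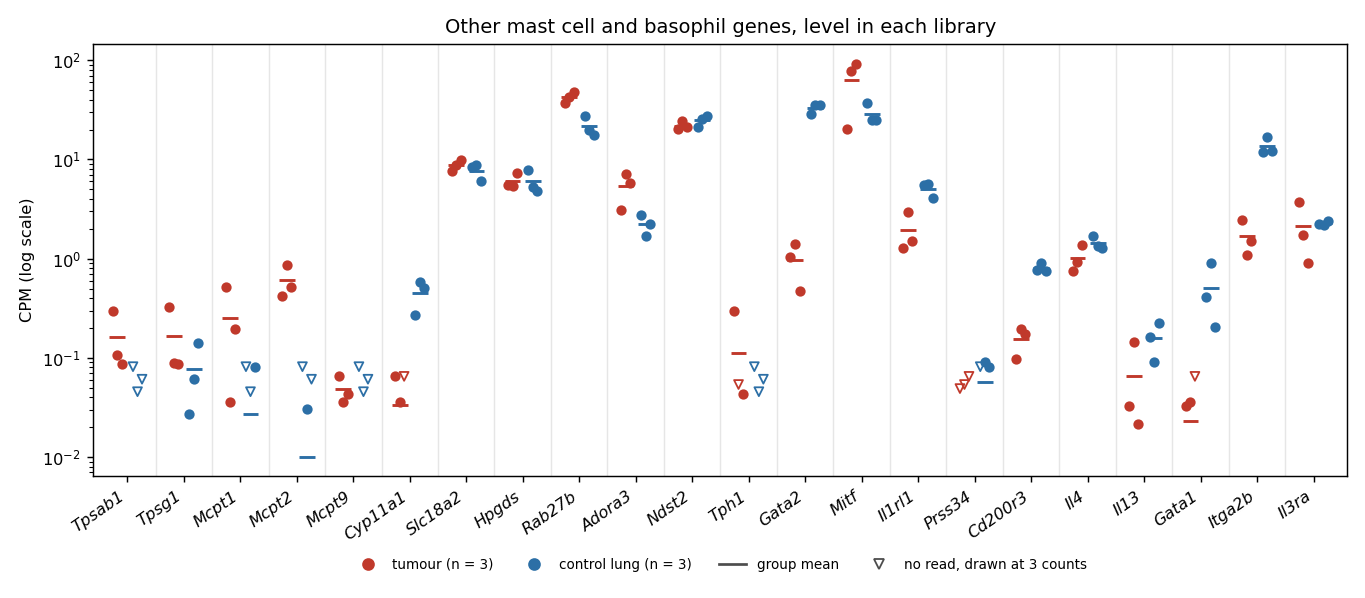
Level in CPM, on a log axis, of the mast cell and basophil genes outside the members that had more than 3 reads over the 6 libraries, with 1 point per library, tumour left of control lung, and a line at the group mean. Gata2, Cd200r3 and Itga2b lie lower in every tumour library, Mcpt2 and Rab27b lie higher, and Slc18a2 and Hpgds overlap; open triangles mark libraries with no read, drawn at 3 counts.

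Genes of basophils outside the members fell or did not pass. Of 7, 5 were tested, of which 3 fell and none rose, with a median log2 fold change of -2.37. Cd200r3, a receptor of basophils and mast cells, had 0.0981, 0.198 and 0.174 CPM in tumour replicates 1, 2 and 4, against 0.761, 0.912 and 0.751 CPM in control replicates 1, 2 and 3 (log2 fold change -2.37 ± 0.42, edgeR adjusted p = 0.00249). Itga2b, an integrin of platelets and basophils, had -3.02 ± 0.34 (edgeR adjusted p = 0.00025). Gata1, a factor of erythroid, platelet and mast cell lineages, had 2, 2 and 0 tumour reads against 15, 60 and 10 control reads, at -4.28 ± 0.87 (edgeR adjusted p = 0.00485, and -3.51 without control replicate 2). Il4, a cytokine that basophils release, was at -0.49 ± 0.35, and Il3ra, the alpha chain of the IL-3 receptor, at -0.09 ± 0.48 (edgeR adjusted p = 0.299 and 0.893). Prss34, a basophil protease, had no read in tumours and 0, 6 and 4 reads in control lung, and Il13 had 2, 8 and 1 tumour reads against 6, 6 and 11 control reads.

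The signalling genes downstream of the IgE receptor are shared by many leukocytes, and most were lower. Of 14, all were tested, of which 9 fell and none rose, with a median log2 fold change of -1.07. The adaptor gene Grap2 fell by 2.54 ± 0.31, the kinase gene Fyn by 1.17 ± 0.16 and the lipid phosphatase gene Inpp5d by 1.75 ± 0.29 on the log2 scale (edgeR adjusted p = 0.000371, 0.000584 and 0.00167). Fcer1g, the gamma chain that the IgE receptor shares with other receptors of myeloid cells, had 6.75, 26.3 and 23.5 CPM in tumour replicates 1, 2 and 4, against 32.01, 20.2 and 15.3 CPM in control replicates 1, 2 and 3. The groups overlapped, unlike those of the alpha and beta chains, and the log2 fold change was -0.26 ± 0.48 (edgeR adjusted p = 0.70).

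Growth factors and activating cytokines of mast cells and basophils, listed with receptors, went in different directions. Of 8 genes, 6 were tested, of which 2 rose and 3 fell, with a median log2 fold change of -1.22. Kitl, the ligand of KIT, fell to 16.1, 16.6 and 12.9 CPM in tumour replicates 1, 2 and 4, against 253, 316 and 262 CPM in control replicates 1, 2 and 3. This was a log2 fold change of -4.19 ± 0.19 (edgeR adjusted p = 7.83e-06). Il33, a cytokine that activates mast cells, rose to 147, 197 and 156 CPM in the tumour libraries, against 75.9, 49.2 and 38.6 CPM in the control libraries, at 1.61 ± 0.26 (edgeR adjusted p = 0.00152). Csf2rb, the beta chain shared by the receptors of IL-3, IL-5 and GM-CSF, had 1.26 ± 0.28 (edgeR adjusted p = 0.00708) and shares 28.6% of its 32-base words with other genes. Its close copy Csf2rb2 had 0.71 ± 0.54 (edgeR adjusted p = 0.324), and passed without tumour replicate 1 (1.19, edgeR adjusted p = 0.00631). Tslp, an epithelial cytokine, had -3.17 ± 0.38 and Il9r, the IL-9 receptor, -3.16 ± 0.61 (edgeR adjusted p = 0.000323 and 0.00392), and Il9r had -4.14 without tumour replicate 2. Il3 and Il9 had no read in any library.

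No gene that clears, carries or senses histamine, or degrades histidine, passed the threshold as higher in the fit of all 6 libraries. Of 11, 9 were tested, of which 3 fell and none rose, with a median log2 fold change of -0.54. Over all genes tested, 18.1% rose and 23.8% fell, so nothing is read from this count. Hrh2, the H2 receptor, fell to 0.556, 1.01 and 0.477 CPM in tumour replicates 1, 2 and 4, against 2.39, 3.97 and 3.47 CPM in control replicates 1, 2 and 3 (log2 fold change -2.26 ± 0.40, edgeR adjusted p = 0.00232). Hrh1, the H1 receptor, had -0.54 ± 0.42 (edgeR adjusted p = 0.350). Hrh4 had 0, 4 and 2 tumour reads against 4, 10 and 8 control reads, and Hrh3 had 2, 0 and 0 against 4, 0 and 1. Slc22a3, an organic cation transporter that takes up histamine, had 0, 16 and 6 tumour reads against 191, 440 and 259 control reads, at -5.36 ± 0.81 (edgeR adjusted p = 0.0011). It had -4.70 without tumour replicate 1 and -6.55 without tumour replicate 2. Aoc1, diamine oxidase, which breaks histamine down outside cells, had -2.21 ± 0.54 (edgeR adjusted p = 0.0114, and -2.89 without tumour replicate 2).

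Hnmt, the methyltransferase that inactivates histamine inside cells, had 4.76, 35.5 and 31.8 CPM in tumour replicates 1, 2 and 4, against 18.5, 14.3 and 9.59 CPM in control replicates 1, 2 and 3. Tumour replicate 1 lay below all controls and the other tumour libraries above them, and the log2 fold change was 0.77 ± 0.62 (edgeR adjusted p = 0.358). Without tumour replicate 1, Hnmt had 1.28, Maob, a monoamine oxidase, 0.54 and Hal, which degrades histidine, 1.05 (edgeR adjusted p = 0.00317, 0.0307 and 0.00814), so 3 genes of the list rose there. With all libraries Maob had 0.24 ± 0.29 and Hal 0.83 ± 0.29 (edgeR adjusted p = 0.547 and 0.0514). Slc29a4, a monoamine transporter, stood at -0.98 ± 0.54 and Aldh7a1, an aldehyde dehydrogenase, at -0.03 ± 0.14 (edgeR adjusted p = 0.184 and 0.887).

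**Figure D4:**
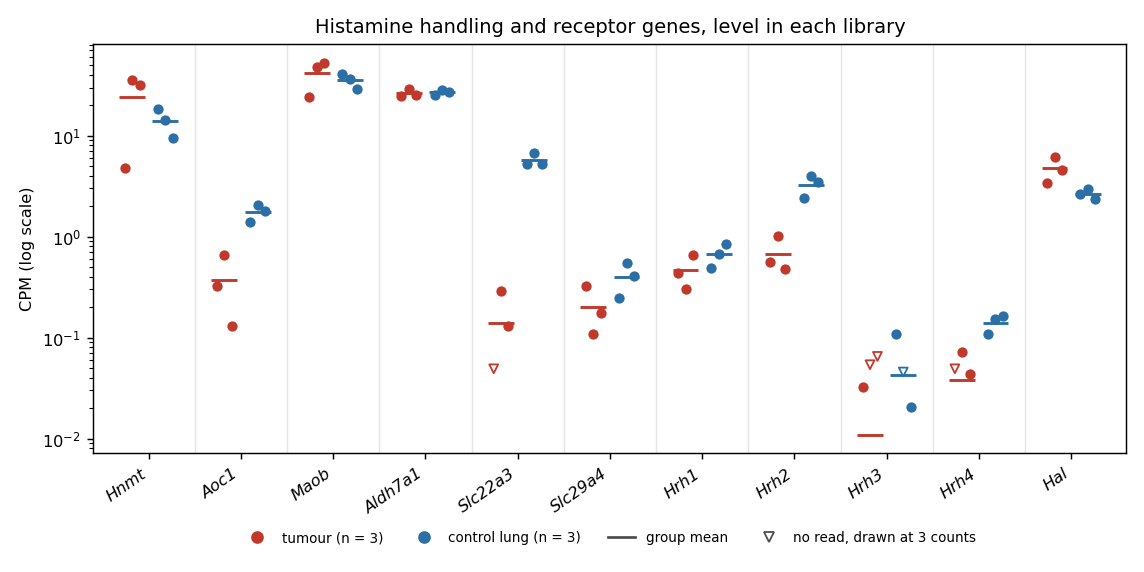
Level in CPM, on a log axis, of 11 histamine handling and receptor genes, with 1 point per library, tumour left of control lung, and a line at the group mean. Hrh2, Slc22a3 and Aoc1 lie lower in every tumour library, and tumour replicate 1 lies below the other tumour libraries for Hnmt (4.76 CPM) and Maob (24.1 CPM); open triangles mark libraries with no read, drawn at 3 counts.

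Markers of other cells known to transcribe Hdc or Kit were measured beside them, and their part in the differences was not tested. Of 16 neutrophil and granulocyte precursor markers, 10 were tested and 9 fell, with a median log2 fold change of -3.09. Their summed level was 9.86 to 56.7 CPM in tumours and 373 to 551 CPM in control lung, and Camp, Ngp and S100a9 had log2 fold changes of -4.58 ± 0.46, -3.15 ± 0.40 and -4.93 ± 0.70 (edgeR adjusted p = 0.000142, 0.000467 and 0.000802). S100a9 had -6.11 without tumour replicate 2. The precursor genes Mpo, Elane, Prtn3 and Ctsg had too few reads to be tested. Over the tumour libraries they had 2, 2, 10 and 8 reads, against 32, 2, 24 and 2 over the control libraries. All tumour reads of Elane, Prtn3 and Ctsg were in replicate 1. Of 10 neuroendocrine and enterochromaffin-like markers, 7 were tested, of which 4 fell, and 2 without control replicate 2. None rose with all libraries, and 1 rose without tumour replicate 2. Their median was -2.36 log2 units, also with genes that had no tumour read set to their bound. Their summed level was 6.05 to 32.1 CPM in tumours and 9.08 to 10.2 CPM in control lung. The highest sum was that of tumour replicate 1, where Ddc, an enzyme of dopamine and serotonin synthesis, had 29.5 CPM, against 2.50 and 3.69 CPM in tumour replicates 2 and 4 and 3.64, 1.58 and 3.31 CPM in control replicates 1, 2 and 3. The log2 fold change of Ddc was 2.07 ± 0.89 (edgeR adjusted p = 0.0958). Cckbr, the gastrin receptor, had no tumour read against 47 control reads. It was at least 16.8-fold lower by the floor of 3 reads, and its exact binomial 95% counting interval began at 13.1-fold. Resp18 was 30.0-fold lower (exact counting interval 7.94 to 254, edgeR adjusted p = 0.00307). It had 2 tumour reads, both in replicate 4, against 56 control reads. Without that library Resp18 had no tumour read, and without tumour replicate 1 its log2 fold change was -4.03.

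Of 11 macrophage and monocyte markers, 2 rose and 2 fell, with a median log2 fold change of 0.18 and summed levels of 236 to 702 CPM in tumours and 401 to 668 CPM in control lung. Ly6c2 and C1qb had 2.51 ± 0.42 and 1.06 ± 0.21, and Ccr2 and Csf1r -2.08 ± 0.21 and -0.95 ± 0.23 (edgeR adjusted p = 0.00187, 0.00425, 0.000149 and 0.0106). Without tumour replicate 1, the library with the least of these markers, 4 rose. Without control replicate 3, 1 fell, and Csf1r had an edgeR adjusted p of 0.0507. Of 7 eosinophil markers, 5 were tested and 2 fell, Ccr3 at -4.18 ± 0.53 and Il5ra at -4.66 ± 0.75 (edgeR adjusted p = 0.000449 and 0.00146). The list's median was 0.80, since the other 3 tested, Siglecf, Ear1 and Ear6, stood at 0.98 ± 0.63, 0.80 ± 0.68 and 0.93 ± 0.88 and did not pass (edgeR adjusted p = 0.246, 0.388 and 0.434). All 3 had their lowest level in tumour replicate 1, and 72.9% of the 32-base words of Ear1 occur in another gene. Il5ra had -4.01 and -5.54 without tumour replicates 1 and 2, and 2 markers rose without tumour replicate 1. The summed eosinophil level was 13.6 to 114 CPM in tumours and 24.8 to 60.9 CPM in control lung. Of 6 markers of type 2 innate lymphoid cells, with a median log2 fold change of -2.01, 4 fell, and 2 without control replicate 2, among them Gata3 at -4.80 ± 0.43, Il7r at -2.98 ± 0.45 and Klrg1 at -2.51 ± 0.72 (edgeR adjusted p = 8.69e-05, 0.00105 and 0.0230). Klrg1 had an edgeR adjusted p of 0.0921 and 0.0580 without control replicate 2 and tumour replicate 2, and a log2 fold change of -3.72 without tumour replicate 4. Of the capillary endothelial markers, Tek, Ptprb and Cdh5 had -4.47 ± 0.26, -4.10 ± 0.25 and -3.69 ± 0.24 (edgeR adjusted p = 1.71e-05, 1.85e-05 and 2.22e-05). Of 5 melanocyte markers 2 were tested, of which Mlana rose by 1.07 ± 0.32 (edgeR adjusted p = 0.0292). Dropping control replicate 2 gave Mlana an edgeR adjusted p of 0.0937, dropping control replicate 3 gave 0.102 and dropping tumour replicate 4 gave 0.0666. The other tested melanocyte marker, Pmel, was below control lung in every tumour library at -0.72 ± 0.26 (edgeR adjusted p = 0.0545), and the list's median was 0.17. Tyrp1 had no read in any library, and Dct had none in tumours and 5, 6 and 0 reads in control replicates 1, 2 and 3.

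**Figure D5:**
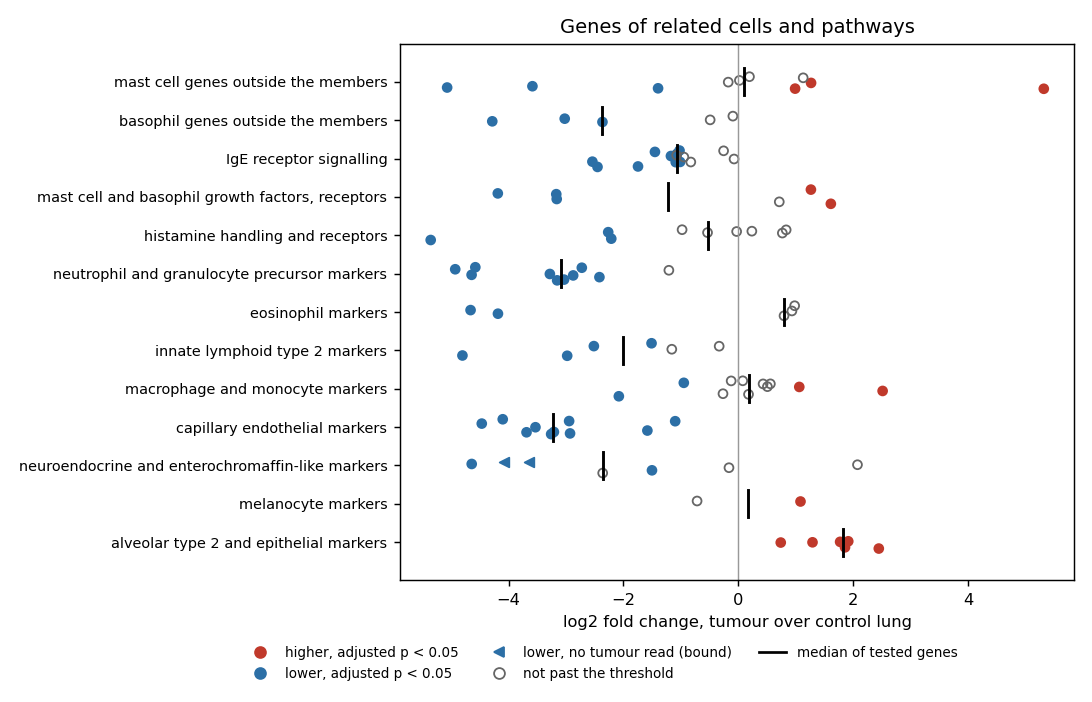
Log2 fold change of tumour over control lung for the tested genes of 13 lists, with 1 point per gene, filled red for genes past the threshold and higher, filled blue for genes past it and lower, open where not past it, a triangle at the bound for 2 genes with no tumour read, and a black line at the list's median. The mast cell list spreads from Gata2 (-5.07) to Mcpt2 (5.32, from 2 control reads), the basophil, neutrophil and capillary lists lie below 0, and the alveolar type 2 list lies above it.

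The genes whose profile over the 6 libraries was nearest to that of Hdc were sought among 10893 tested genes whose log2 CPM averaged 2 or more. Nearness was the mean absolute difference of log2 CPM after centring each gene on its own mean, a measure dominated by the difference between the groups. The 5 nearest to Hdc were Tspan11 (mean difference 0.109), a tetraspanin gene, Rabgap1l (0.122), Rbp4 (0.139), the plasma retinol carrier, and the membrane mucin genes Muc4 (0.140) and Muc20 (0.143). Tspan11 had 120.4, 201 and 169 CPM in tumour replicates 1, 2 and 4, against 32.3, 30.3 and 27.3 CPM in control replicates 1, 2 and 3. As in Hdc, replicate 2 was the highest tumour library and replicate 1 the lowest, an order that choosing by nearness favours. Of the exon bases of Muc20, 15.6% lie in exons of Muc4, so these neighbours share reads.

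The 5 genes nearest to Cpa3 were Hmcn1 (mean difference 0.182), a matrix protein gene, Wif1 (0.195), a secreted WNT inhibitor, Mmrn1 (0.202), a protein of platelets and endothelium, Ifi204 (0.207), an interferon-inducible gene, and Cav1 (0.214), the caveolin of endothelium and alveolar type 1 cells. Cav1 averaged 34.1 ± 7.56 CPM in tumours and 694 ± 70.2 CPM in control lung (SD, n = 3 each). Of the 32-base words of Ifi204, 44.9% occur in another gene. Wif1 and Mmrn1 had log2 fold changes of -4.06 and -3.83, and of -4.77 and -4.43 without tumour replicate 2.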

How the data were processed

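Read counts per gene name were deposited for 6 mouse libraries prepared from total RNA. Exonic reads were assigned by the authors with featureCounts 1.6.5 to GENCODE M1 gene names, per the file headers, a read going to every name it overlaps with no strand or pair option, so overlapping and antisense genes can share reads. STAR, limma, edgeR, R 3.6.0 and the builds GRCm38 and mm9 appear in the submitters' processing notes; the coordinates are those of mm9. The deposited length column gave exon bases.

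The counts were tested with edgeR 4.0.16 in R 4.3.3: genes were kept by filterByExpr (minimum count 10), libraries scaled by TMM, tumour compared with control by a quasi-likelihood F test without covariates, and p-values adjusted by Benjamini-Hochberg over all genes and called at 0.05. SE came from the F statistic, and log2 CPM for profiles used a prior count of 2. The fit was tested on simulated data. Members and gene lists were chosen with earlier results of these data known. Of 138 list entries, 134 matched by name and 4 through an older name in RefSeq. Named genes were every gene of the mast cell, basophil, growth factor and histamine lists, the 3 with the smallest p in each direction of the others, and the 5 nearest profiles; 1 gene that this rule names is not reported here, and Fcer1g, Ddc, Siglecf, Ear1, Ear6, Pmel and the neutrophil precursor and melanocyte genes with few reads were named after their values were seen. Words of 32 bases were looked up in all other genes of GENCODE M21. Alternatives were DESeq2 1.42.0, limma-voom (limma 3.58.1), other scalings and filters, each library left out and a replicate block. No 2 libraries of a group agreed within counting noise (lowest chi-square 63.2 times its degrees of freedom).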

Additional observations from a re-analysis of the deposited data

How the results depend on the processing

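Hdc, Cpa3, Mcpt8, Cma1 and Kit kept their direction under DESeq2, limma-voom, the other scalings, no filter, the replicate block and each library left out, and Hdc, Cpa3 and Kit under the 1 CPM filter, where the others had no value. The floor bounds of Mcpt4, Fcer1a and Ms4a2 were recomputed under the scalings and with each library left out, the lowest being 4.36 for Mcpt4. Tpsb2 had no read to compare. Scaling by library size alone moved the median log2 fold change of all genes to -0.10, against 0.01. Under upper-quartile scaling and under DESeq2, 1 histamine gene rose where none had. Under library size alone no melanocyte marker rose and 1 fell, and 1 fell under DESeq2, under limma-voom and with at least 1 CPM required in 3 libraries. That filter left 1 basophil gene, 1 eosinophil marker and 1 neuroendocrine marker lower.

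The replicate numbers come from the titles and pair nothing the labels name, and same-numbered libraries deviated with correlations of -0.18 and -0.0086. With a replicate block, 1092 genes rose and 2549 fell over all genes, against 3627 and 4770 without it. Among the lists under the block, 1 mast cell gene rose and 1 fell, 1 growth factor gene rose, 1 macrophage marker rose and 1 fell, 0 melanocyte markers and 2 epithelial markers rose, and 1 histamine gene and 2 neuroendocrine markers fell. The log2 fold changes of Slc18a2 (-0.050), Hpgds (-0.23), Il3ra (0.19), Hnmt (-0.31) and Maob (-0.18), none called, reversed under the block. Hpgds was also reversed by library size alone (-0.078) and by the 1 CPM filter (-0.00075).

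With each library left out in turn, 2536 to 4210 genes rose and 3870 to 5226 fell. The histamine genes that rose numbered 0 to 3, eosinophil markers 0 to 2, macrophage markers 2 to 4, neuroendocrine markers 0 to 1 and melanocyte markers 0 to 1. The innate lymphoid markers that fell numbered 2 to 4, macrophage markers 1 to 2 and neuroendocrine markers 2 to 5. The log2 fold change of Cpa3 ran from -5.03 to -4.13, and the lower bounds ran from 4.36 to 7.55 for Mcpt4, 6.97 to 13.4 for Fcer1a and 40.3 to 74.4 for Ms4a2. Uncalled genes near 0 changed sign: Hpgds ran from -0.12 to 0.26, Il3ra from -0.75 to 0.27 and Aldh7a1 from -0.091 to 0.045. The cause of these shifts was not tested. Members with under 10 reads in a library are limited by depth.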
